A study of Homo sapiens with 12 samples.

Results

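The immunoglobulin variable segments were the 201 rows of the gene table, of 57820 in all, whose identifier maps to a symbol made of IGHV, IGKV or IGLV and a number. They comprised 73 heavy-chain (IGHV), 73 kappa (IGKV) and 55 lambda (IGLV) segments, and 49 orphan segments, which lie outside the 3 functional loci, were left out. GENCODE release 29 lists 117 of the 201 as variable genes and 84 as pseudogenes. RNA was read from JVM3, HG3 and MEC1, 3 established human lines of a B cell cancer, chronic lymphocytic leukaemia by their labels. For every line there were libraries with wild-type U1 and libraries with the g.3A>C mutant of U1, a small nuclear RNA that base-pairs with 5′ splice sites. The 6 groups held 2 technical replicates each. The sources used here do not give how the mutant U1 was brought into the cells. Nothing says that replicates were separate cultures, so a p-value within a line measures technical spread only, and across lines n is 3.

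A B cell builds each antibody chain by joining 1 variable (V) segment to a joining (J) segment, with a diversity segment between them in the heavy chain, and splicing the joined exon to a constant region. The heavy chain is made first, then a kappa or a lambda light chain, and in most B cells a single heavy and a single light chain end up on the surface. All cells of a B cell clone inherit the same joined segments, so the segment that a leukaemia uses marks the clone. Unjoined segments can still give some RNA, called germline transcription.

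Depth was 29880079 to 39716818 counts per library, and the 201 segments took 0.08006% to 0.2073% of them. B cell identity held in every library: 8 or 9 of 9 B cell markers reached 1 CPM (counts in a library scaled by its total) in every library of a line, and their sum was 1934 to 2897 CPM. The marker that fell short was CD5, at 0.0282 to 0.474 CPM in JVM3 and 0.079 to 0.115 in MEC1, beside 40.26 to 42.09 in HG3. Of 5 T cell markers with a row, none reached 1 CPM in every library of a line, CD3G was at 0 in all, and the sum was at most 1.09 CPM. The sums of 3 natural killer, 5 myeloid and 3 fibroblast markers were at most 1.47, 14.4 and 4.96 CPM.

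The segments that carried the clonal signal are shown as their reference sequences, because the rest of the values turn on how distinct they are. Each line gives the last 150 bases of the variable exon, 5′ to 3′ in the sense of the gene, from GENCODE release 29 on GRCh38. Capitals mark the tyrosine, tyrosine and cysteine codons that close the last framework region, just before the part that joins to the J segment.
IGHV3-7: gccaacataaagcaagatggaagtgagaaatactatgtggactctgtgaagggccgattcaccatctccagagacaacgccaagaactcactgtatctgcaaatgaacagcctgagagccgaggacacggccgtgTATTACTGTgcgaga
IGHV1-2: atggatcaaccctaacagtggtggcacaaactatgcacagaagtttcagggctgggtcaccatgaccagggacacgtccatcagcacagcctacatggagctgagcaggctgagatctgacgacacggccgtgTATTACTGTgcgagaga
IGHV4-59: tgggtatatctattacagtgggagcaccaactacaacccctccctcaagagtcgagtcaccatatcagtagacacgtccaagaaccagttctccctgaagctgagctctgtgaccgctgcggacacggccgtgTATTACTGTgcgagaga
IGKV1-5: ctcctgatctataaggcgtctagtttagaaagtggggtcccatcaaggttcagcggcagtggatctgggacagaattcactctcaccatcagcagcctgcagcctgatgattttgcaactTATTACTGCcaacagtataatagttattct
IGKV2-29: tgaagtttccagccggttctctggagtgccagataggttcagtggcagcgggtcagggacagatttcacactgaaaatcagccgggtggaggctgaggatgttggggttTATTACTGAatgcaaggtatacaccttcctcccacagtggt
IGKV4-1: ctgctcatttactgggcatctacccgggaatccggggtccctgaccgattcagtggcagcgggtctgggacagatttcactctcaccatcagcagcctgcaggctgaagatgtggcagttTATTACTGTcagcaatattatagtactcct
IGLV2-23: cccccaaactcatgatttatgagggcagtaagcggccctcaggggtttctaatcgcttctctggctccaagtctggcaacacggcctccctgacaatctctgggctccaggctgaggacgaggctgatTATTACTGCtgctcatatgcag
IGLV3-21: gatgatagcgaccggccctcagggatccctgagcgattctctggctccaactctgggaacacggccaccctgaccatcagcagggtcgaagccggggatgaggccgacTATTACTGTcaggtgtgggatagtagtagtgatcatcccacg

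IGKV2-29 stands apart in these sequences. Its reference has TGA, a stop codon, in the place where the other 7 have the cysteine codon TGT or TGC, and GENCODE lists it as a pseudogene. The counts do not show which base the JVM3 cells carry there. Between leaders of the same locus, identity over the variable exon was 65.4% (IGKV1-5 and IGKV2-29) to 75.3% (IGKV1-5 and IGKV4-1). Copies within a family are closer. IGHV4-59 and IGHV4-61 share 99.7% of aligned bases, and 81.2% of the 50-base windows of IGHV4-59 occur in at least 1 other segment. That share was 55.7% for IGKV2-29, 29.7% for IGHV3-7, 26.5% for IGLV2-23, 19.4% for IGHV1-2, 4.86% for IGKV1-5, 0.391% for IGLV3-21 and 0 for IGKV4-1. Counts of IGHV4-59 and IGKV2-29 are therefore the least certain, since such reads can be lost or given to a copy. In MEC1, IGHV4-61 held 27 counts beside 18429 of IGHV4-59, and in JVM3 IGKV2D-29, 98.1% identical to IGKV2-29, held 15 beside 15382.

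Each line was dominated by its own segments. Of the 201 segments, 96 had at least 1 count in some library and the rest were at 0 in all. Among those 96, 54 stayed under 10 counts over all 12 libraries, and 19 reached 100. The leading segments were chosen by their level, so their levels and shares are descriptions without a test.

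In JVM3 the heavy chain was IGHV3-7 (ENSG00000211938.2), with 98.9% of the 40642 IGHV counts of its 4 libraries. The kappa counts were split between IGKV1-5 (ENSG00000243466.1) with 81.1% and IGKV2-29 (ENSG00000253998.2), and the pair held 99.9% of 81497 counts. Lambda segments gave 72 counts in all. JVM3 was thus a kappa line by RNA, with a light chain signal from a functional segment and from one listed as a pseudogene.

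In HG3 the heavy chain was IGHV1-2 (ENSG00000211934.2), with 97.5% of 65821 counts. The lambda counts were split between IGLV2-23 (ENSG00000211660.3) with 63.8% and IGLV3-21 (ENSG00000211662.2), the pair holding 99.9% of 184812 counts. Kappa segments gave 38 counts, of which IGKV1-27 took 28. HG3 was therefore a lambda line with 2 abundant lambda segments.

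In MEC1 the heavy chain was IGHV4-59 (ENSG00000224373.2), with 80.3% of only 22952 counts, and the kappa chain was IGKV4-1 (ENSG00000211598.2), with 99.9% of 93429. A further 4 IGHV segments passed 1% of the locus: IGHV1-68, a pseudogene, with 8.41%, IGHV1-69 with 6.56%, IGHV1-24 with 2.15% and IGHV5-78, another pseudogene, with 1.12%. Lambda segments gave 350 counts, and IGLV6-57 took 53.7% of them.

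**Figure D1:**
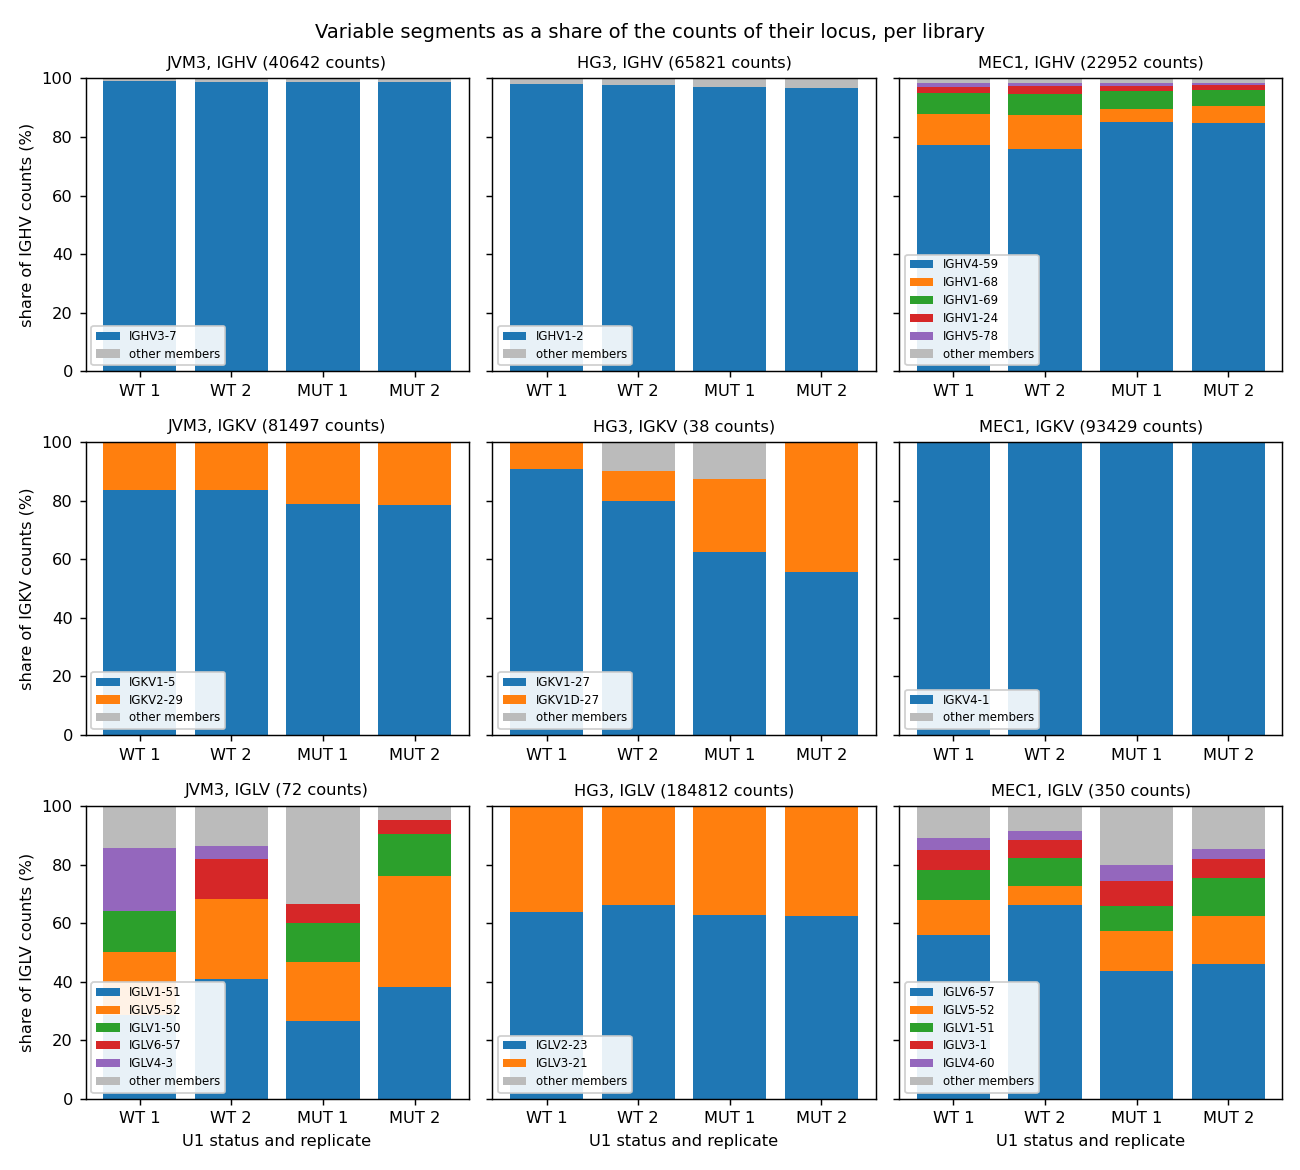
Share of each locus's counts (y axis, %) taken by the leading segments in every library (x axis, U1 status and replicate), with the counts over 4 libraries in each panel title. JVM3 and MEC1 draw their light chain counts from IGKV and HG3 from IGLV, and the panels with 38, 72 and 350 counts hold almost no reads.

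Per kilobase of exon, which makes genes of different length comparable, IGLV2-23 in HG3 was the most abundant segment, at 1784.6 CPM per kilobase averaged over 4 libraries. IGKV4-1 in MEC1 followed at 1304.9 and IGHV1-2 in HG3 at 1169.9. IGKV1-5 in JVM3 stood at 883.8, IGLV3-21 in HG3 at 840.8 and IGHV3-7 in JVM3 at 669, while IGKV2-29 in JVM3 (291) and IGHV4-59 in MEC1 (280.5) were the lowest of the 8. Counts of IGKV2-29 and IGHV4-59 are the least certain by shared sequence, and so is their place in this order. Over single libraries, IGLV2-23 (1689.6 to 1913.9 CPM per kilobase) stayed above all others. Neighbours in this order overlapped between IGKV4-1 and IGHV1-2, IGKV1-5 and IGLV3-21, IGLV3-21 and IGHV3-7, and IGKV2-29 and IGHV4-59.

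A leader was almost silent outside its own line. IGHV3-7 had 22 counts in HG3 and none in MEC1, IGHV4-59 had 11 in HG3 and 1 in JVM3, and IGHV1-2 had 4 in MEC1 and none in JVM3. The 5 light chain leaders had 0 to 3 counts in each other line. A count of 0 in a library of JVM3 wild-type replicate 1, for example, allows up to 0.0998 CPM, the level of 3 counts.

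Splice junctions gave a further reading of the clone from the same libraries, since the file counts reads that run from a J segment to a constant region. Its columns hold 1 value per line and U1 status, with no replicate, so they are given with 95% Wilson intervals that cover counting error only. J segments were named by the spacing of their junction ends, which placed 6 IGHJ, 5 IGKJ and 3 IGLJ segments, against 2 at the next best placing in each locus.

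JVM3 spliced its heavy chain from IGHJ4, with 96.0% of 3771 IGHJ reads (95.4% to 96.6%) in wild type and 95.8% of 3338 (95.1% to 96.4%) in mutant. MEC1 also used IGHJ4, with 94.8% in both states, over 2544 and 2145 reads. HG3 used IGHJ6, with 97.0% of 12354 reads in wild type and 97.2% of 9946 in mutant. The heavy-chain J segment was thus the same in both U1 states of every line. The IGHJ4 junction lies at chromosome 14, 106322322 to 106330425, and that of IGHJ6 at 106322322 to 106329408, in hg19.

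For the light chains, MEC1 used IGKJ2 for 99.7% of 13650 reads in wild type and 99.6% of 13294 in mutant. JVM3 used a pair: IGKJ1 took 77.2% of 10863 reads (76.4% to 77.9%) in wild type and 70.3% of 12117 (69.5% to 71.1%) in mutant, and IGKJ4 took 21.9% (21.1% to 22.7%) and 28.4% (27.6% to 29.2%). In HG3 the reads were split between IGLJ2 and IGLJ3. IGLJ2 had 48.5% of 9737 reads (47.5% to 49.5%) in wild type and 46.6% of 8336 (45.5% to 47.6%) in mutant. IGLJ3 had the rest. In MEC1 and JVM3 the number of abundant J segments, 1 and 2, equalled that of abundant light chain V segments. The HG3 split is uncertain, since the constant regions IGLC2 and IGLC3 are near-identical and reads can be given to either. It also did not follow the 63.8% share of IGLV2-23 among IGLV counts. The files do not link a V to a J, so which J went with which V was not read.

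**Figure D2:**
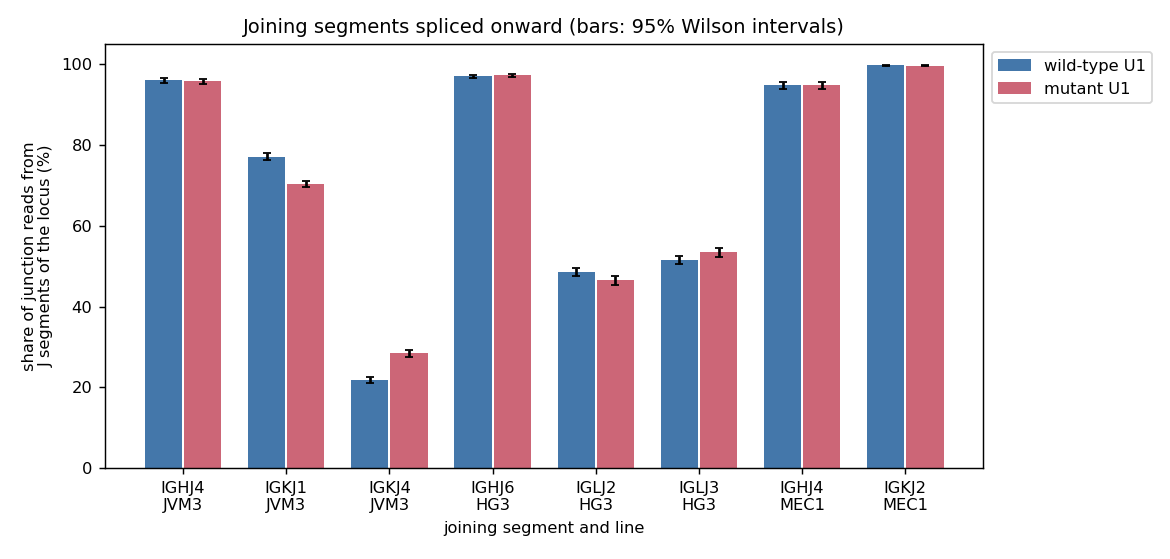
Share of junction reads that leave each main J segment (y axis, %, of all J reads of that locus) by J segment and line (x axis), for wild-type and mutant U1, with 95% Wilson intervals as error bars. IGKJ4 of JVM3 stands at 21.9% in wild type and 28.4% in mutant, while the heavy-chain J segments stay within 1 point.

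A leader intron of IGLV3-21, inside the segment itself, gave 19838 reads in HG3 wild type and 19800 in mutant, at chromosome 22, 23054949 to 23055384 in hg19. The other 2 lines had 0 to 2 reads. In JVM3, where IGLV segments had 72 counts, IGLJ1 still gave 516 and 535 junction reads. The last intron of IGLL5, a gene that reuses IGLJ1 and its constant exon without a V segment, is the same intron, and IGLL5 stood at 16.3 CPM in wild-type and 15.8 CPM in mutant JVM3, so its reads and those of a joined lambda segment cannot be told apart.

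The heavy-chain leader of each line was lower in mutant than in wild-type libraries, while the light-chain leaders were lower, higher or overlapping. Across lines, with replicates summed to 3 mutant and 3 wild-type libraries and the line as a block, 25 of the 201 segments had enough counts to be tested among 21270 genes (edgeR quasi-likelihood test, Benjamini-Hochberg adjusted p under 0.05). Of the 25, IGHV3-52 rose and IGHV1-68 fell, where 1.83% of all tested genes rose and 1.86% fell. IGHV3-52 had enough counts only through the HG3 mutant libraries, where it is high, so its call is not independent of that filter. The median log2 fold change of the 25 was -0.29, beside -0.01 for all genes tested. Because a leader is expressed in 1 line, this test rests on 1 line's values for each leader, and none of the 8 leaders passed it. IGHV3-7 had the lowest adjusted p of the 8, 0.0969 in edgeR's quasi-likelihood test.

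Within lines, the same test on 12 libraries compared mutant with wild type against technical spread. In JVM3, 1 of 25 tested segments rose and 2 fell, where 10.4% of all genes rose and 12% fell. In HG3, 3 rose and 3 fell, against 18.7% and 19.6% of all genes. In MEC1, none rose and 7 fell, against 18% and 18.6%, and 8 segments had an unadjusted p under 0.05 in edgeR, while DESeq2 called 6 there. The 25 were chosen over all 12 libraries, and many had few or no counts in a given line. IGHV1-2 in JVM3 and IGHV3-7 in MEC1, for example, had 0 counts. Fewer than 25 could thus be called in a line, and the numbers called are only loosely comparable with the shares of all genes. The spread behind both is technical.

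The heavy-chain leader fell in every line. IGHV3-7 in JVM3 stood at 332.8 and 340.9 CPM in wild type and at 233.2 and 243.7 in mutant. The groups did not overlap, and the fitted log2 fold change was -0.48 (technical SE 0.04, adjusted p 4.52e-08 in the edgeR quasi-likelihood test). The technical SE here and below is that of the plain difference in log2 CPM between the groups of the line. The fit also rescales the libraries, so a fitted value can differ from that difference by more than the SE. IGHV1-2 in HG3 stood at 554.4 and 530.2 CPM in wild type and at 442.9 and 423.9 in mutant. Again the groups did not overlap, at a log2 fold change of -0.32 (technical SE 0.05, adjusted p 5.29e-06 in edgeR). IGHV4-59 in MEC1 went from 156.6 and 152.1 CPM to 122.4 and 124.2, without overlap. The fitted log2 fold change was -0.38 (adjusted p 2.64e-09 in edgeR), beside -0.32 (technical SE 0.02) in plain log2 CPM.

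The light-chain leaders did not all go one way, and their difference from the heavy chain was not tested. IGKV1-5 in JVM3 stood at 501.1 and 493.6 CPM in wild type and 444.7 and 441.4 in mutant, a log2 fold change of -0.14 (technical SE 0.01, edgeR adjusted p 0.00302). IGKV2-29 in the same libraries went the other way, from 96.72 and 97.09 CPM to 119.1 and 120.1, a log2 fold change of 0.33 (technical SE 0.01, edgeR adjusted p 1.19e-06). Neither pair of groups overlapped. The share of IGKV2-29 among IGKV counts was 16.2% and 16.4% in wild type and 21.1% and 21.4% in mutant, beside the move of IGKJ4 from 21.9% to 28.4% of junction reads.

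IGLV2-23 in HG3 stood at 960.8 and 913.4 CPM in wild type and 848.2 and 861 in mutant, a log2 fold change of -0.13 (technical SE 0.04, edgeR adjusted p 0.00456). Without HG3 wild-type replicate 1 it no longer passed (adjusted p 0.078). IGLV3-21 in the same line had 542.9 and 463.4 CPM in wild type, with 498.5 and 519.9 in mutant lying between them, and a log2 fold change of 0.02 (technical SE 0.12, edgeR adjusted p 0.854). Without HG3 wild-type replicate 1 it passed, at 0.14 (edgeR adjusted p 0.0135), and without replicate 2 it was -0.09. IGKV4-1 in MEC1 went from 733.4 and 737 CPM to 672.7 and 665, without overlap. The fitted log2 fold change was -0.20 (edgeR adjusted p 1.8e-05), beside -0.14 (technical SE 0.01) in plain log2 CPM.

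**Figure D3:**
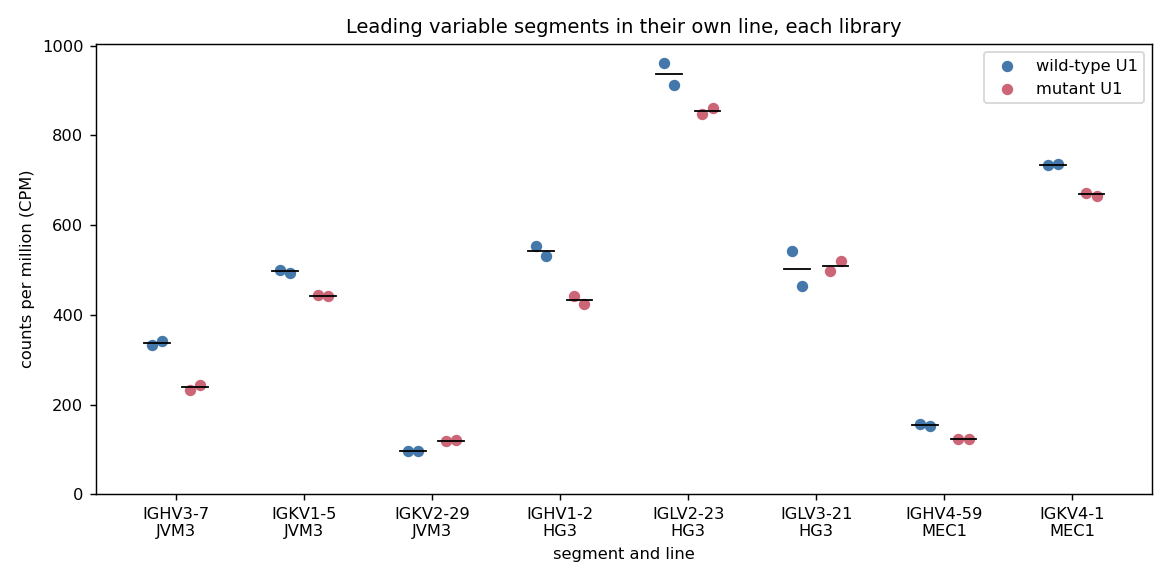
CPM (y axis) of the 8 leading segments in their own line (x axis), with a point for each library and a bar at the group mean. The mutant points lie below the wild-type points for IGHV3-7, IGKV1-5, IGHV1-2, IGLV2-23, IGHV4-59 and IGKV4-1, above them for IGKV2-29, and overlap for IGLV3-21.

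Summed over all members, IGHV stood at 340.3 ± 6.51 CPM (SD, n = 2 libraries) in wild-type and 241.5 ± 7.69 in mutant JVM3, a ratio of 0.71. In HG3 the sums were 553.8 ± 17.3 and 446.9 ± 12.4 CPM, a ratio of 0.807, and in MEC1 201.3 ± 1.80 and 145.1 ± 1.64 CPM, a ratio of 0.721. For the summed light chain the ratio was 0.947 for IGKV in JVM3, 0.947 for IGLV in HG3 and 0.91 for IGKV in MEC1. The sums carry no test. In bulk RNA, fewer cells with a transcript and less of it per cell cannot be told apart.

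The constant genes gave a second reading of the heavy-chain transcripts and a partial one of the light-chain transcripts. IGHM, the constant region of IgM, stood at 1543 and 1475 CPM in wild-type and 1140 and 1132 in mutant JVM3. It was 2717 and 2491 against 2224 and 2259 in HG3, and 1291 and 1184 against 1089 and 1020 in MEC1. It fell within each line (log2 fold change -0.39, -0.21 and -0.29 in JVM3, HG3 and MEC1, edgeR adjusted p 0.000131, 0.00557 and 0.000624), and its adjusted p across lines was 0.0964 in edgeR and 0.00999 in DESeq2. IGKC, the kappa constant region, fell in MEC1 (log2 fold change -0.28, edgeR adjusted p 3.23e-06), while in JVM3 it had 84.28 and 85.6 CPM against 80.54 and 83.09 (edgeR adjusted p 0.706). IGLC3, a lambda constant region near-identical to IGLC2 and so uncertain, had 31.26 and 25.24 CPM in wild-type and 27.51 and 29.12 in mutant HG3. Both light-chain constant genes were far below their V segments. In wild-type means, IGKC had 84.94 CPM beside an IGKV sum of 594.5 in JVM3, and 97.16 beside 735.7 in MEC1. IGLC3 had 28.25 beside an IGLV sum of 1442.3 in HG3. Why was not tested, and changes of IGKC and IGLC3 are uncertain for this reason.

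IGHD, the constant region of IgD, is reached from the same joined heavy-chain exon by splicing past IGHM. It stood at 53.18 and 49.24 CPM against 32.35 and 30.21 in JVM3, 262.6 and 244.7 against 150.9 and 147.1 in HG3, and 36.25 and 29.45 against 13.93 and 12.92 in MEC1. The groups did not overlap in any line, and IGHD fell across lines (log2 fold change -0.93, edgeR adjusted p 0.0151), and of 12 tested constant genes edgeR called 1 and DESeq2 called 2. Its response differed between lines (edgeR adjusted p of the interaction 0.00111).

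Junction reads from IGHJ segments ended at 2 acceptors. The nearer one opens the exon that ends at an annotated IGHM intron of 90 bases. The farther one lies 10312 bases beyond it, where GENCODE puts the start of IGHD 10540 bases beyond that of IGHM, so it was named by distance and not by an exact match. Its share was 4.38% (3.77% to 5.08%) in wild-type and 3.33% (2.77% to 3.99%) in mutant JVM3, with intervals that overlap. It was 11.0% (10.5% to 11.6%) and 8.18% (7.66% to 8.74%) in HG3, and 3.46% (2.82% to 4.24%) and 1.07% (0.716% to 1.6%) in MEC1, lower in mutant beyond counting error in both.

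**Figure D4:**
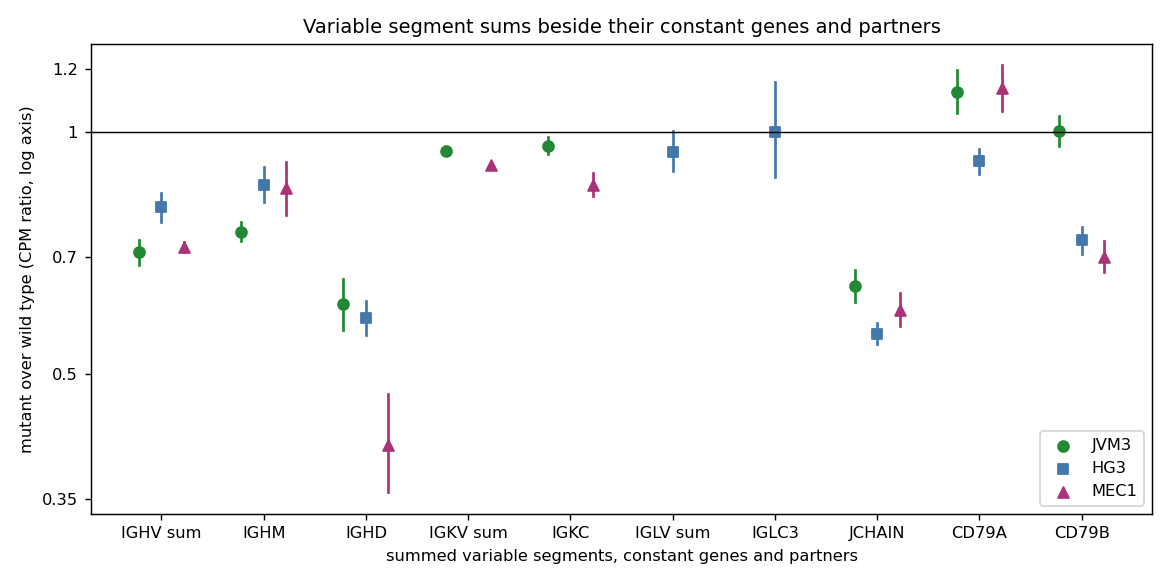
Ratio of mutant to wild-type mean CPM (y axis, log scale) for the summed variable segments of each locus, constant genes and partner genes (x axis), with a point per line and bars over the pairings of replicates. The IGHV sum lies at 0.71 to 0.807, IGHD at 0.409 to 0.611 and the light chain sums at 0.91 to 0.947.

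Other genes of the receptor and of antibody gene assembly were read from lists. Of 4 tested partner genes, JCHAIN, which links antibody units, fell across lines (log2 fold change -0.75, edgeR adjusted p 0.0056). CD79A, a signalling partner of the receptor, rose in JVM3 and MEC1 (0.19 and 0.12) and fell in HG3 (-0.11), and CD79B, its partner, fell in HG3 and MEC1 (-0.44 and -0.57). Of 12 tested genes of antibody gene assembly and diversification, 2 fell across lines in edgeR and 3 in DESeq2. XRCC4, an end-joining factor, was among them (log2 fold change -0.67, edgeR adjusted p 0.0226) and fell in each line. PRKDC, another end-joining factor, fell in each line (-0.30, -0.38 and -0.31), with an adjusted p across lines of 0.0589 in edgeR and 0.00144 in DESeq2. Within lines, 0 of the 12 rose and 4 fell in JVM3, 1 rose and 5 fell in HG3, and 1 rose and 4 fell in MEC1. POLM rose in HG3 (0.22) and XRCC6 in MEC1 (0.17). Of 13 tested factors that act at V promoters and enhancers, none passed across lines in edgeR, and within lines 2 rose and 7 fell in JVM3, 1 rose and 5 fell in HG3, and 2 rose and 7 fell in MEC1. Of all tested genes, 10.4%, 18.7% and 18% rose in JVM3, HG3 and MEC1. In the same order, 12%, 19.6% and 18.6% fell. POU2F1 (-0.22, -0.29 and -0.31 in JVM3, HG3 and MEC1) and MEF2C (-0.27, -0.29 and -0.59) fell in each line. PAX5 rose in JVM3 and MEC1 (0.22 and 0.36) and fell in HG3 (-0.26). IRF4 rose in JVM3 (0.27) and fell in MEC1 (-0.41), and IRF8 rose in HG3 (0.51). SPIB rose in MEC1 (0.29) and fell in JVM3 and HG3 (-0.35 and -0.66). Across lines 5 of the 13 factors had an unadjusted p under 0.05 in edgeR, and DESeq2 called 2. No joining segment of 11 tested passed across lines in edgeR or DESeq2, and 0 had an unadjusted p under 0.05. Within lines, IGHJ6 fell in JVM3 and HG3 in both tools. The edgeR calls of IGHJ5 in these lines (lower in mutant) and of IGKJ3 and IGKJ5 in MEC1 (lower) were lost in DESeq2, at adjusted p of 0.0694, 0.154, 0.0912 and 0.0683. These lists were drawn up with earlier results of these data known.

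The summed level of 5 plasma cell markers was lower in the mutant libraries of each line. It was 382.9 to 387.6 CPM in wild-type and 324.6 to 332.9 in mutant JVM3, 354.7 to 359.1 and 248.7 to 249.5 in HG3, and 568.4 to 573.1 and 426.4 to 428 in MEC1. XBP1, a secretory factor, held most of the sum in JVM3 and MEC1. Of the 5 markers, 1 rose and 4 fell in JVM3, 0 rose and 4 fell in HG3, and 1 rose and 4 fell in MEC1. Those that rose were SDC1 in JVM3 (log2 fold change 0.40, edgeR adjusted p 0.00877) and PRDM1 in MEC1 (0.28, edgeR adjusted p 0.016). Of all tested genes, 12%, 19.6% and 18.6% fell in JVM3, HG3 and MEC1, and 10.4%, 18.7% and 18% rose. TNFRSF17, a survival receptor of plasma cells, fell across lines (log2 fold change -0.41, edgeR adjusted p 0.0436). The sum of the 9 B cell markers was also lower in the mutant libraries of each line. It was 2029 to 2082 CPM in wild-type and 1934 to 1953 in mutant JVM3. In HG3 it was 2810 to 2897 and 2716 to 2791, and in MEC1 2483 to 2490 and 2244 to 2267. Of these 9, 2 rose in each line in edgeR, while 6, 5 and 5 fell in JVM3, HG3 and MEC1. The part of either marker set in the heavy-chain values was not tested.

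The counts outside the leaders were few and differed by line. They made 1.14% of IGHV counts in JVM3, 2.5% in HG3 and 19.7% in MEC1. Segments of the leader's own family held 35.6% of these in JVM3 and 63.3% in HG3, but 6.37% in MEC1. There the main extra segments are far from the leader in sequence: IGHV1-68 shares 63.2% and IGHV1-69 67.7% of aligned bases with IGHV4-59. In the order of the locus (GENCODE release 29, GRCh38), 19 segments lie beyond IGHV4-59 from the J segments and held 3731 of the MEC1 counts outside the leader. The 53 between it and the J segments held 792, of which IGHV1-24 had 493. In JVM3 the 5 segments between IGHV3-7 and the J segments had no count, and all 464 lay beyond.

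In MEC1 all 4 extra segments fell. Their fitted log2 fold changes were all below the -0.38 of the leader, a difference that was not tested. IGHV1-68 stood at 21.7 and 22.79 CPM in wild type and 6.5 and 8.1 in mutant, a log2 fold change of -1.68 (technical SE 0.16, edgeR adjusted p 1.94e-15). IGHV1-69, its neighbour in the locus, went from 14.06 and 14.56 CPM to 8.87 and 8, a log2 fold change of -0.82 (technical SE 0.08, edgeR adjusted p 7.28e-08). The groups of both were apart by more than the gap between replicates. IGHV1-24 went from 4.6 and 5.09 CPM to 2.61 and 2.69 (log2 fold change -0.93, edgeR adjusted p 0.00064), and IGHV5-78 from 2.7 and 2.61 to 1.26 and 1.18 (-1.18, edgeR adjusted p 0.000183). The leader's share of IGHV counts was 77.3% and 76.1% in wild type and 85% and 84.9% in mutant, and that of IGHV1-68 was 10.7% and 11.4% against 4.52% and 5.54%. IGLV6-57, at 1.61 and 2.11 against 1.08 and 0.918 CPM, also fell (-0.94, edgeR adjusted p 0.0211), and did not pass in DESeq2 (adjusted p 0.192) or without MEC1 wild-type replicate 2 or mutant replicate 2.

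IGHV1-68 gave 1930 of its 1931 counts in MEC1, so its call across lines (log2 fold change -1.63, edgeR adjusted p 0.0392) is that line's value. DESeq2 gave an adjusted p of 0.992 and a log2 fold change of 0.13 there. IGHV5-78 had 99 counts in wild-type and 100 in mutant JVM3, and no change was detected in that line (edgeR adjusted p 0.777).

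**Figure D5:**
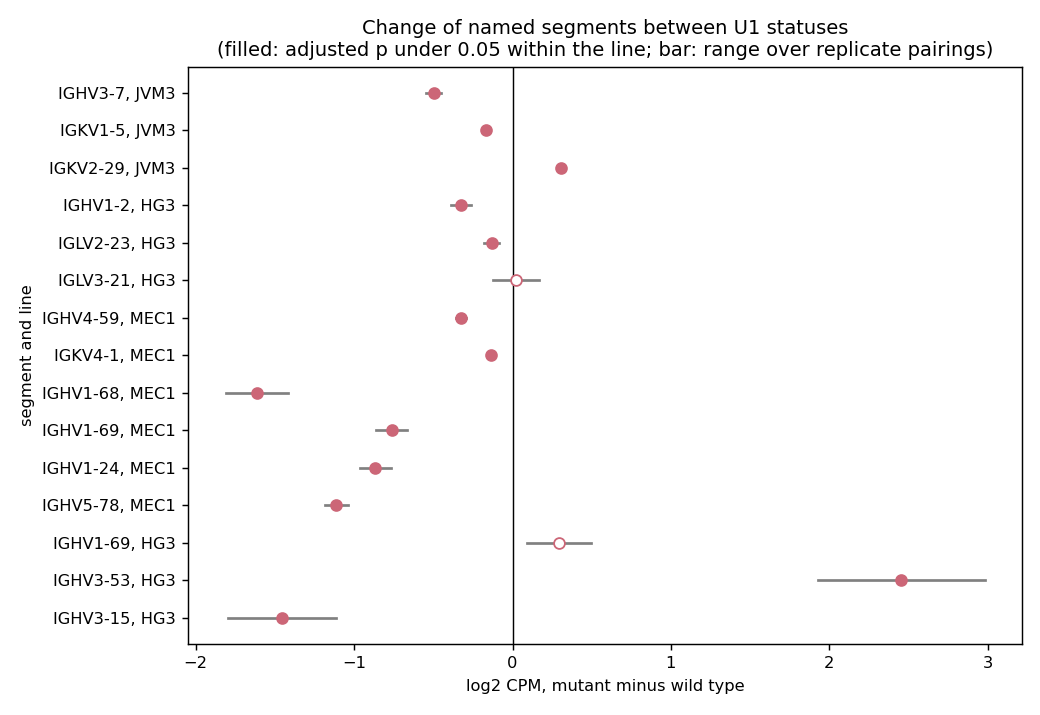
Difference in log2 CPM between mutant and wild type (x axis) for named segments in a line (y axis), with a point at the difference of group means and a bar from the lowest to the highest pairing of replicates. Filled points passed the test within the line. IGHV1-68 and IGHV5-78 lie lowest among the MEC1 segments, and IGHV3-53 in HG3 highest of those drawn, which leave out segments with a library at 0.

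In HG3 a run of neighbouring segments was higher in mutant. IGHV3-53 had 13 and 5 counts in the wild-type and 46 and 47 in the mutant libraries, a ratio of 5.21 in CPM (exact 95% interval 3.12 to 9.17) and a log2 fold change of 2.38 (edgeR adjusted p 2.76e-05). IGHV3-52, the next segment in the locus and a pseudogene, had 2 counts in wild-type replicate 1, none in replicate 2, and 22 and 30 in mutant, a ratio of 26.2 (6.9 to 222.1, edgeR adjusted p 5.85e-06). IGHV8-51-1, also a pseudogene of that stretch, had no count in wild type and 12 and 10 in mutant, at least 7.39-fold higher against a floor of 3 counts over the group (edgeR adjusted p 0.000273). The groups did not overlap for any of them. Without HG3 wild-type replicate 1 or replicate 2, the log2 fold change of IGHV3-53 was 3.07 or 1.96 and that of IGHV3-52 was 7.76 or 3.75. IGHV3-52 and IGHV8-51-1 had enough counts to be tested only through the HG3 mutant libraries, where they are high, so their p-values are not independent of that filter. IGHVII-51-2, which lies between IGHV8-51-1 and IGHV3-52 and is no member by its symbol, was looked at after these values were seen and had 1 wild-type and 24 mutant counts.

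The same stretch was thin in JVM3 and silent in MEC1. IGHV3-53 had 7 and 8 counts in wild-type and 9 and 30 in mutant JVM3 (edgeR adjusted p 0.101). IGHV3-52 and IGHV8-51-1 had no wild-type and 5 mutant counts each in JVM3. All 3 were at 0 in every MEC1 library. No difference in response between lines was called for them (edgeR adjusted p of the interaction 0.432, 0.94 and 1). With no count in MEC1 and few in JVM3, that test could hardly show a difference, so it does not speak for a like response. IGHV3-52 was the segment that rose across lines (edgeR adjusted p 0.0277), and it lost that call without JVM3 (edgeR adjusted p 0.0577). The call is not independent of the count filter, which the segment passed through the HG3 mutant libraries, and DESeq2 gave it no adjusted p across lines.

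IGHV3-15 in HG3 went the other way, from 27 and 36 counts to 11 and 11, a log2 fold change of -1.51 (edgeR adjusted p 0.00819), with a ratio of 0.352 (0.206 to 0.58). It lost that call without HG3 wild-type replicate 2, mutant replicate 1 or mutant replicate 2. IGHV1-69 in HG3 had 3.96 and 3.45 CPM in wild type and 4.22 and 4.88 in mutant, and its edgeR adjusted p was 0.1. Of the 25 tested segments it alone differed between lines in response, where 32% of all tested genes did (edgeR adjusted p of the interaction 1.69e-05), with values of 0.30 in HG3 and -0.82 in MEC1. Many of the 25 had few or no counts outside a single line, where a difference could hardly be called. The number called is therefore not comparable with the share of all genes. IGHV1-69 has a near-identical copy, IGHV1-69D, not analysed here, so its counts are uncertain.

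Some further segments had low p-values on few counts and did not pass in edgeR. IGHV3-74 had 17 and 30 counts in wild-type and 9 and 17 in mutant JVM3 (adjusted p 0.127). Its groups met in raw counts but did not overlap in CPM (0.5654 and 0.8365 against 0.2538 and 0.428). IGLV6-57 in HG3 had 5 and 2 against 1 and 0 (adjusted p 0.0857). IGHV1-2 in MEC1 had 0 and 4 against none (adjusted p 0.0629), and IGHV4-59 in JVM3 had 1 count in all (adjusted p 0.43).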

How the data were processed

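RNA-seq of 12 libraries was analysed from the deposited table of raw counts per gene, which the authors made with STAR 2.5.4b and HTSeq 0.9.1 on hg19, per the submitters' processing notes. The sources used here do not give the annotation release or strand setting. Reads outside any gene were 17.7% to 24.9% and reads mapped to several places 29.0% to 34.9% of counted and uncounted reads together. Both stayed out of library sizes. The deposited junction counts hold 170723 junctions in pooled columns, so they carry no test.

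Of 57820 identifiers, 51996 had a symbol. Counts were tested with edgeR 4.0.16 (R 4.3.3; TMM scaling, low-count filter by group, robust quasi-likelihood test, Benjamini-Hochberg adjustment over 21270 genes). DESeq2 1.42.0, no filter, left-out libraries or lines, and a replicate block were alternatives. Replicates differed by more than counting noise (mean chi-square 2.28 to 5.29 per gene). CPM divides by the gene counts of a library. Intervals and floors cover counting error only.

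Named segments were the leaders of each locus and line, others with at least 1% of the locus (else the 5 highest), those called across lines, and the 8 with the lowest adjusted p within each line, called or not. The members and lists were chosen with earlier results of these data known. A gene of these lists is not reported here.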

Additional observations from a re-analysis of the deposited data

Results flagged for a closer look

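The response of IGHV1-69 to the U1 state differed between lines (edgeR quasi-likelihood interaction test, adjusted p 1.69e-05, DESeq2 adjusted p 0.00102). Its log2 fold change was 0.30 in HG3, with both mutant libraries above both wild-type libraries, and -0.82 in MEC1, with both below. In JVM3 it had no count. The near-identical copy IGHV1-69D was not analysed here.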

How the results depend on the processing

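Across lines, 2 segments were called. DESeq2 called 0 (3 at an unadjusted p under 0.05), and 5 were called with no filter on low counts. Without JVM3, HG3 or MEC1 the count was 0, 1 and 1. Treating the 12 libraries as unsummed gave 10, and 10 again with a replicate block, but technical replicates then count as independent samples. Within HG3, DESeq2 called 3 in place of 6, and gave no adjusted p for IGHV3-15, IGHV3-52 and IGHV8-51-1. Signs changed in a few cases. IGHV1-68 across lines was 0.13 in DESeq2, and IGLV3-21 in HG3 was -0.0023 with no filter and ranged from -0.092 to 0.136 when a library was left out, with -0.018 without HG3 mutant replicate 2. The cause was not tested.

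Leaving out each library in turn gave 2 to 3 calls across lines, 3 to 4 in JVM3, 5 to 6 in HG3 and 6 to 8 in MEC1. For a response that differs between lines it gave 1 to 4, with 4 (IGHV1-24, IGHV1-69, IGHV3-7 and IGHV5-78) without HG3 mutant replicate 2. Of 325 values for single segments under the alternatives, 311 kept their direction and side of the threshold.

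The replicate numbers were not used to pair the samples. Replicate differences of the 2 U1 states correlated weakly over 13530 genes, at -0.0085, 0.069 and 0.139 in JVM3, HG3 and MEC1. A small shared part, largest in MEC1, may remain. With a replicate block, 3, 6 and 8 segments were called within these lines, and the response of 2 differed between lines in place of 1.

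With orphan and joining segments in the denominator, the leader's share was 97.0% for IGHV3-7, 79.2% for IGKV1-5, 94.4% for IGHV1-2, 73.2% for IGHV4-59 and 98.2% for IGKV4-1. With TMM-scaled CPM, the ratio of mutant to wild type was 0.963 for IGKV in JVM3, 0.693 for IGHV in MEC1 and 0.875 for IGKV in MEC1. Segments under 10 counts, 54 of the 96 with any, allow no statement on change.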

Other observations

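Constant genes of switched antibody classes were seen in MEC1. IGHG3 stood at 28.8 to 33.6 CPM and IGHA1 at 17.9 to 23.1 CPM over its 4 libraries, beside IGHM at 1020 to 1291 CPM. IGHVIII-67-4, the pseudogene next to IGHV1-68 on the side of the J segments and no member by its symbol, had 46 wild-type and 81 mutant counts in MEC1, where IGHV1-68 had 1436 and 494. It was looked at after its values were seen and was not tested.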
